A study of Mus musculus with 8 samples.

Results

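Fluid movement across the jejunum was examined through 9 transport genes: Cftr, Slc26a3, Slc26a6, Slc9a2, Slc9a3, Slc12a2, Slc4a4, Kcnq1 and Aqp7. They were taken by symbol from a table of 56941 gene identifiers, and each symbol matched 1 identifier. Bulk RNA sequencing covered naive mice of C57BL/6 (called B6 below) and C3H/HeJ (called C3H), both inbred strains, with 4 libraries of each. The labels describe no allele, drug or allergen in either group, and mice of 6 to 8 weeks of both strains shared cages for at least 8 weeks before harvest. The libraries are named by strain and replicate number (B6 2, 3, 4 and 5; C3H 1, 3, 4 and 5). The series as a whole concerns allergen uptake by the gut in food anaphylaxis, and the strain comparison describes the gut before any challenge.

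The small intestine absorbs and secretes fluid at the same time. Absorption runs mainly on the villus, where apical Na/H exchangers and Cl/HCO3 exchangers work side by side to take up NaCl and water follows. Secretion runs mainly from the crypt, where a basolateral cotransporter loads the cell with chloride, basolateral K channels keep the driving force, and apical CFTR lets chloride and bicarbonate out. Carbonic anhydrases supply the protons and bicarbonate that the exchangers trade, and aquaporins carry water and, for some members, glycerol.

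Libraries held 37205896 to 58251332 counts, and the 9 genes had 981 to 38215 counts each per library, so counting error was small beside the spread between libraries. The labels do not say that each library is a separate mouse, so each p-value is set against a spread between libraries that may be partly technical. Enterocyte markers (Alpi, Sis, Apoa1, Apoa4, Apob, Krt20, Vil1 and Cdh17) were abundant everywhere and summed to 51685 to 69981 CPM (counts scaled to library size) in B6 and 45906 to 76650 CPM in C3H. Of 5 colon markers 4 stayed under 1 CPM in every library. Of 4 tested markers of the distal small intestine 2, Slc51a and Slc51b, were lower in C3H, and Slc10a2 and Osr2 were not called. The summed level of that list, 278 to 346 CPM in B6 and 165 to 230 CPM in C3H, was mostly Slc51a and Slc51b. Of 7 proximal markers 2, Cybrd1 and Slc40a1, were higher in C3H and 0 lower. The proximal list summed to 12240 to 14141 CPM in B6 and 8789 to 13568 CPM in C3H. That sum was mostly Slc5a1, Lct and Fabp1, which were not called. Slc5a1, the largest part, averaged 5819 CPM in B6 and 4443 CPM in C3H (edgeR adjusted p = 0.152). Pancreatic acinar transcripts were uneven, from 24.2 to 214 CPM in B6 and from 47.8 to 2450 CPM in C3H, highest in C3H 3 and C3H 5. In whole tissue, fewer cells of a type and less RNA per cell cannot be told apart.

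Among the 9 genes the Na/H exchanger gene Slc9a2 passed the test of a strain difference, and it was 1.43-fold lower in C3H. The other 8 did not pass, with ratios of C3H to B6 from 0.799 (Cftr) to 1.14 (Kcnq1). The test was edgeR's quasi-likelihood test with adjusted p under 0.05 after Benjamini-Hochberg adjustment over 18025 tested genes. All 9 genes were tested; 0 were called higher and 1 lower (11.1%). At an unadjusted p under 0.05, 0 were higher and 2 lower, and limma-voom called 0 higher and 1 lower. Over all tested genes 21.4% were called, 11.3% higher and 10.1% lower in C3H, so the share among the 9 genes was not above the background. DESeq2 called 2 of the 9, Slc9a2 and Cftr, against 17.8% of the 24860 genes to which it gave an adjusted p. The median log2 fold change (C3H over B6) of the 9 genes was -0.07, beside 0.03 for all tested genes. Their median size regardless of sign was 0.12, beside 0.20 for all tested genes, and all 9 lay within 1.5-fold. The strains did not overlap in CPM for 1 of the 9 genes, Cftr, beside 24.4% of all tested genes. That gap, on TMM-scaled values, was narrow (131.3 CPM in B6 3 beside 131.1 CPM in C3H 3).

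**Figure D1:**
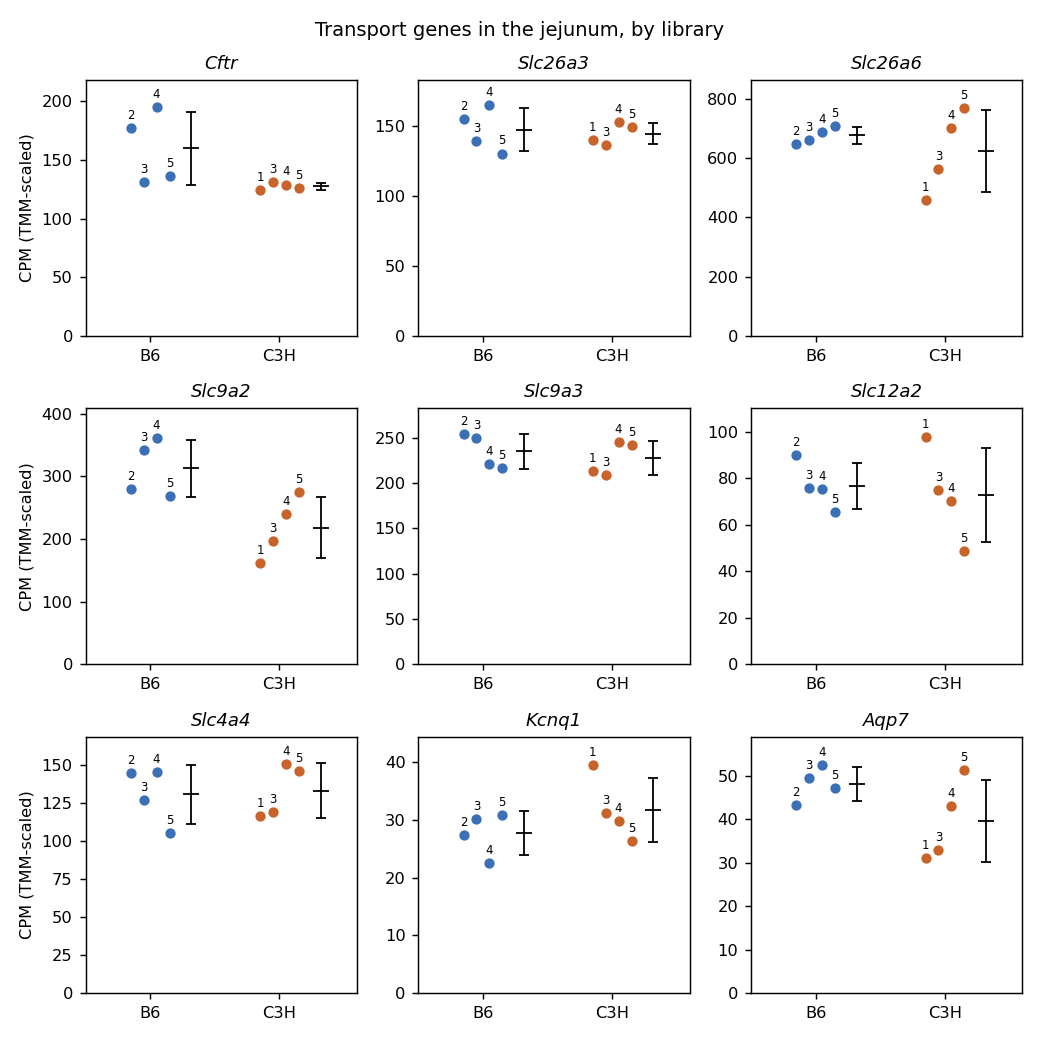
CPM (TMM-scaled, linear axes from 0) of each of the 9 genes in the 4 B6 and 4 C3H libraries; numbers are replicate numbers, and the bars to the right are the mean and SD. Slc9a2 averages 313 CPM in B6 and 218 CPM in C3H with C3H 5 above B6 5. Cftr is the gene whose strains do not overlap, by a narrow gap (131.3 CPM in B6 3 beside 131.1 CPM in C3H 3).

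Sodium and proton exchange was represented by Slc9a3 and Slc9a2. Slc9a3 encodes NHE3, the main apical Na/H exchanger of sodium absorption, and Slc9a2 encodes NHE2, a second apical exchanger of the same family. Slc9a2 (ENSMUSG00000026062) stood at 279, 342, 362 and 269 CPM in B6 2, 3, 4 and 5. In C3H 1, 3, 4 and 5 it stood at 162, 198, 240 and 275 CPM. C3H 1, C3H 3 and C3H 4 were below every B6 library, and C3H 5 lay between B6 5 and B6 2. The means were 313 ± 45.7 CPM in B6 and 218 ± 49.2 CPM in C3H (SD, n = 4 each). The log2 fold change was -0.52 (SE 0.16) with an adjusted p of 0.0413, and the 95% interval of the ratio of C3H to B6 was 0.545 to 0.893.

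The call for Slc9a2 was close to the threshold. It ended when 1 of B6 3, B6 4, C3H 1, C3H 3 and C3H 4 was left out, with an adjusted p of at most 0.105 by the same test, while the log2 fold change stayed between -0.65 and -0.41 over the 8 fits that left out 1 library each. Without the 4 libraries richest in pancreatic transcripts the log2 fold change was -0.66, with an adjusted p of 0.124 from 2 libraries per strain.

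Slc9a3 (ENSMUSG00000036123) stood at 254, 250, 221 and 216 CPM in B6 and at 214, 208, 245 and 242 CPM in C3H. The strains overlapped almost fully. The ratio of C3H to B6 was 0.966 with a 95% interval of 0.838 to 1.11 (adjusted p = 0.761), which is the precision these libraries gave. The ratio of Slc9a3 to Slc9a2 within a library does not depend on the scaling of the library. It was 0.908, 0.731, 0.610 and 0.804 in B6 and 1.32, 1.05, 1.02 and 0.880 in C3H. Slc9a2 thus had more counts than Slc9a3 in 4 of 4 B6 libraries and in 1 of 4 C3H libraries. The difference of the mean log2 ratios was 0.49, or 1.40-fold, with an exact two-sided permutation p of 0.0571 (0.171 after adjustment over the 3 ratios examined; the smallest p that 4 against 4 allows is 0.0286).

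Anion exchange on the apical side was represented by Slc26a3 and Slc26a6. SLC26A3, also called DRA, is the Cl/HCO3 exchanger lost in congenital chloride diarrhoea, and SLC26A6, also called PAT1, exchanges chloride for bicarbonate or oxalate and is prominent in the upper small intestine. Slc26a3 (ENSMUSG00000001225) stood at 155, 140, 165 and 130 CPM in B6 and at 140, 136, 153 and 149 CPM in C3H. All 4 C3H libraries lay inside the B6 range. The ratio of C3H to B6 was 0.980 (95% interval 0.853 to 1.13; adjusted p = 0.865).

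Slc26a6 (ENSMUSG00000023259) was the most abundant of the 9 genes, at 647, 662, 688 and 710 CPM in B6 and at 460, 565, 700 and 770 CPM in C3H. B6 libraries were close together (SD 27.7 CPM), whereas C3H libraries spread on both sides of them (SD 139 CPM). The ratio of C3H to B6 was 0.922 (95% interval 0.735 to 1.16; adjusted p = 0.637). The geometric mean ratio of Slc26a3 to Slc26a6 was 0.217 in B6 and 0.236 in C3H, a log2 difference of 0.12 (exact two-sided permutation p = 0.486, also 0.486 after adjustment over 3 ratios).

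Chloride secretion was represented by Cftr at the apical exit and Slc12a2 at the basolateral entry. CFTR is the cyclic AMP-gated chloride and bicarbonate channel that is defective in cystic fibrosis. Cftr (ENSMUSG00000041301) stood at 177, 131.3, 195 and 136 CPM in B6 and at 124, 131.1, 129 and 126 CPM in C3H. C3H libraries lay in a narrow band (128 ± 2.99 CPM, SD, n = 4), and B6 libraries formed a high pair, B6 2 and B6 4, and a low pair just above the C3H band (160 ± 31.1 CPM). The log2 fold change was -0.32 (SE 0.12), the ratio of C3H to B6 had a 95% interval of 0.661 to 0.965, and the unadjusted p of 0.0240 became 0.0895 after adjustment in edgeR. DESeq2 gave -0.35 with an adjusted p of 0.0479, and edgeR without B6 3 gave -0.41 with an adjusted p of 0.0438, so the side of the threshold depended on these choices.

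Slc12a2 encodes NKCC1, the Na-K-Cl cotransporter that loads crypt cells with chloride. Slc12a2 (ENSMUSG00000024597) stood at 90.0, 76.0, 75.3 and 65.7 CPM in B6 and at 97.8, 74.9, 70.4 and 48.7 CPM in C3H. The highest and the lowest library were both C3H, C3H 1 and C3H 5. The ratio of C3H to B6 was 0.951 (95% interval 0.724 to 1.25; adjusted p = 0.827). The geometric mean ratio of Cftr to Slc12a2 was 2.07 in B6 and 1.80 in C3H, a log2 difference of -0.20 (exact two-sided permutation p = 0.429, and 0.486 after adjustment over 3 ratios).

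The other basolateral partners were Slc4a4 and Kcnq1. Slc4a4 encodes NBCe1, an electrogenic Na-HCO3 cotransporter that brings bicarbonate into the cell. Slc4a4 (ENSMUSG00000060961) stood at 145, 127, 146 and 105 CPM in B6 and at 117, 119, 151 and 147 CPM in C3H. In each strain there were both high and low libraries, and the ratio of C3H to B6 was 1.02 (95% interval 0.840 to 1.24; adjusted p = 0.911).

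Kcnq1 encodes the pore of a voltage-gated K channel that, with the subunit KCNE3, returns potassium across the basolateral membrane during secretion. Kcnq1 (ENSMUSG00000009545) stood at 27.4, 30.1, 22.6 and 30.9 CPM in B6 and at 39.6, 31.2, 29.9 and 26.3 CPM in C3H. C3H 1 was above all other libraries and B6 4 below them. The ratio of C3H to B6 was 1.14 (95% interval 0.933 to 1.41; adjusted p = 0.353). Exons of Kcnq1 overlap Kcnq1ot1 on the other strand, which stood at 0.973 CPM in B6 and 0.690 CPM in C3H; the strand setting of the counting is not given in the sources used here.

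Water and glycerol transport was represented by Aqp7, an aquaglyceroporin of villus enterocytes and of adipocytes. Aqp7 (ENSMUSG00000028427) stood at 43.3, 49.5, 52.6 and 47.4 CPM in B6 and at 31.2, 32.9, 42.99 and 51.5 CPM in C3H. C3H 1, C3H 3 and C3H 4 were below every B6 library, and C3H 5 was inside the B6 range. The ratio of C3H to B6 was 0.822 (95% interval 0.655 to 1.03; adjusted p = 0.216), and without C3H 5 the log2 fold change was -0.43 with an adjusted p of 0.0339. Of 6 adipocyte markers 0 passed edgeR's test, and they summed to 281 to 335 CPM in B6 and 277 to 482 CPM in C3H. Cidec and Lipe made up most of that sum in every library, also in C3H 1, where Adipoq, Plin1 and Lep stood at 0. Adipoq, Plin1, Fabp4 and Lep were each highest in C3H 3, Adipoq at 31.5 CPM beside 0 to 5.89 CPM elsewhere. In C3H 3 Aqp7 was lower than in any library but C3H 1. By contrast, Cidec and Lipe were lowest in C3H 1 (123 and 142 CPM) and highest in C3H 5 (163 and 218 CPM) within C3H. Aqp7 had the same lowest and highest C3H libraries. The part of fat in the Aqp7 values was not tested.

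**Figure D2:**
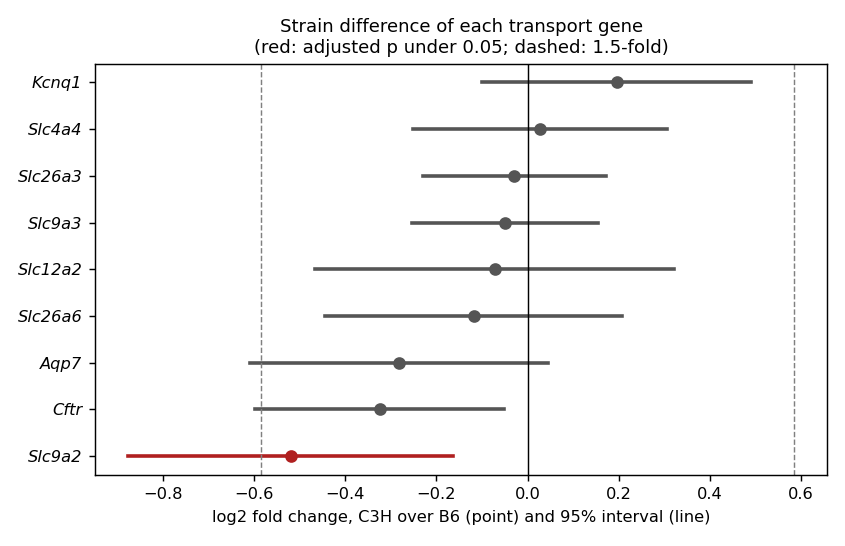
Log2 fold change of C3H over B6 (point) with its 95% interval (line) for the 9 genes, from edgeR's fit of 4 libraries per strain; dashed lines mark 1.5-fold. Slc9a2, at -0.52, is the 1 gene past the threshold, Cftr at -0.32 has an interval below 0 but an adjusted p of 0.0895, and the other 7 intervals include 0.

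Relative to each other the genes kept a similar order in both strains. Per kilobase of exon, Slc26a6 was the most abundant in B6 at 125 ± 5.11 CPM per kb and in C3H at 115 ± 25.6 CPM per kb (SD, n = 4), above the range of every other member. Next came the 2 Na/H exchanger genes. In B6, Slc9a2 (44.8 ± 6.54 CPM per kb) and Slc9a3 (42.7 ± 3.52 CPM per kb) overlapped, and in C3H, Slc9a3 (41.3 ± 3.40 CPM per kb) had the higher mean and Slc9a2 (31.3 ± 7.04 CPM per kb) the lower, again with overlapping ranges. Slc26a3 followed at 23.2 ± 2.42 CPM per kb in B6 and 22.7 ± 1.20 CPM per kb in C3H.

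Cftr stood at 20.6 ± 4.002 CPM per kb in B6, where its range overlapped that of Slc26a3, and at 16.4 ± 0.385 CPM per kb in C3H, where it did not. Aqp7 stood at 17.0 ± 1.38 and 14.0 ± 3.34 CPM per kb and overlapped Cftr in both strains. Slc4a4 stood at 12.1 ± 1.77 and 12.3 ± 1.65 CPM per kb; its range was below that of Aqp7 in B6 and overlapped it in C3H. Slc12a2 (7.03 ± 0.914 and 6.68 ± 1.84 CPM per kb) and Kcnq1 (6.78 ± 0.922 and 7.76 ± 1.37 CPM per kb) were the least abundant and overlapped each other in both strains. With the longest transcript as the length all 9 places stayed the same in B6, and 5 of 9 in C3H, where Slc4a4 passed Aqp7 and Slc12a2 passed Kcnq1.

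Within a strain, groups of these genes were high and low in the same libraries. In C3H, Slc26a6, Slc9a2 and Aqp7 were each lowest in C3H 1 and highest in C3H 5, at -0.41, -0.41 and -0.32 in the former and 0.33, 0.36 and 0.41 in the latter relative to the strain's mean log2 CPM. Slc12a2 and Kcnq1 were the other way round: they stood at 0.46 and 0.33 in C3H 1, the highest library for both, and at -0.54 and -0.25 in C3H 5, the lowest. The summed enterocyte markers were likewise lowest in C3H 1 (45906 CPM) and highest in C3H 5 (76650 CPM). Summed markers of crypts and proliferation (Lgr5, Olfm4, Ascl2, Smoc2, Mki67, Top2a and Sox9) were highest in C3H 1 (740 CPM) and lowest in C3H 5 (390 CPM); the part of either in the spread of these genes was not tested.

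In B6 both marker sums differed less between libraries. There the enterocyte sum was highest in B6 4 (69981 CPM), as were Slc9a2 and Aqp7, and the crypt sum was lowest in B6 4 (408 CPM), as was Kcnq1. Slc12a2 was highest in B6 2, as was the crypt sum (589 CPM), and lowest in B6 5. Slc26a6 in B6 deviated by at most 0.07 from the strain mean. Neither list separated the strains: 0 of 8 enterocyte markers and 0 of 7 crypt markers passed edgeR's test, and Cdh17 alone of them had an unadjusted p under 0.05 (0.0365). Other lists did hold calls, beside 21.4% of all tested genes. Of 5 enteroendocrine markers (Chga, Chgb, Neurod1, Pax6 and Scg5) 4 were higher in C3H, all but Neurod1. Of 5 endothelial markers 2, Kdr and Tie1, were higher, and of 6 goblet cell markers 2, Zg16 and Agr2, were lower. Smooth muscle had 0 of 6 called, and enteric neurons and glia had 1 of 6 lower.

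**Figure D3:**
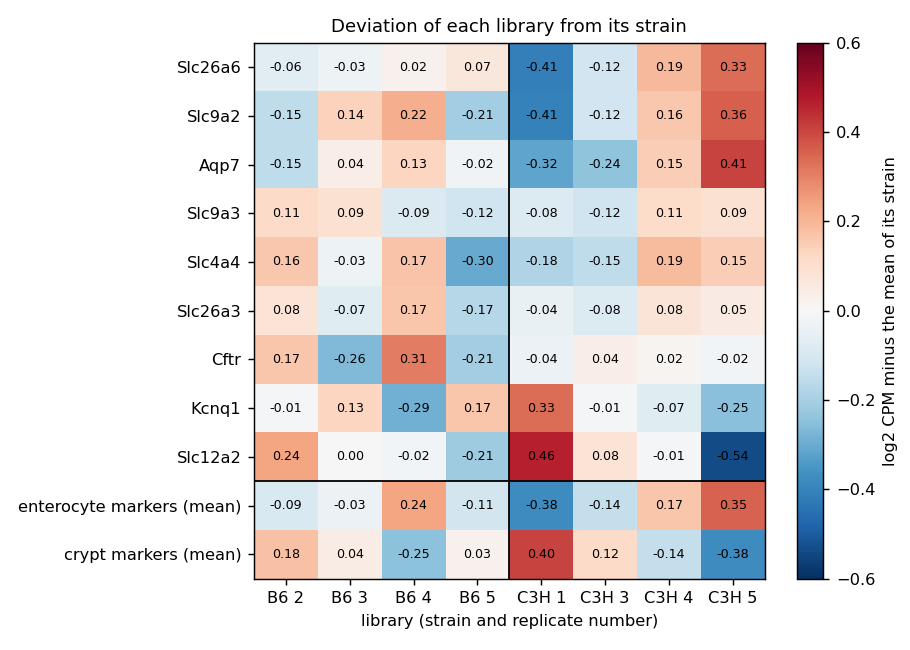
Log2 CPM minus the mean of the library's own strain, for the 9 genes and, below the line, the mean over the markers of enterocytes and of crypts; columns are libraries, red is above and blue below the strain mean. C3H 1 and C3H 5 stand at opposite ends, with Slc26a6, Slc9a2 and Aqp7 going with the enterocyte markers and Slc12a2 and Kcnq1 with the crypt markers.

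Among 9985 genes with a symbol and at least 5 CPM, the ones most like each member in this within-strain pattern were named by Pearson's r of log2 CPM over the 8 libraries, after subtraction of each strain's mean. These r values are descriptions of 8 libraries that share depth and composition. Slc9a2 was most like Cfb (r = 0.993), a complement factor, and Cast (0.992), the calpain inhibitor. For Slc26a6 the nearest were Akp3 (0.992), an intestinal alkaline phosphatase, and Ptcd1 (0.989), and for Aqp7 they were Map7d1 (0.997) and Metrnl (0.992). Slc12a2 was nearest to Psip1 (0.999) and Cbfb (0.989), and Kcnq1 to Tuba1b (0.993), a tubulin, and Sept6 (0.992).

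Lower values were found for the genes that varied less. Slc26a3 was nearest to Napg (0.976) and Ggps1 (0.969), Slc9a3 to Prelid3b (0.967) and Chchd3 (0.959), and Slc4a4 to Tmod3 (0.981) and Azin1 (0.980). Cftr, whose spread was nearly all among B6 libraries, was nearest to the immunoglobulin segment Ighv10-1 (0.986) and to Zfp654 (0.983).

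Beyond the 9 genes, 91 other genes of the same transport pathways were listed by role, and 72 had enough counts to be tested. Of these 11 were higher and 6 lower in C3H (23.6% called, beside 21.4% of all tested genes), with a median log2 fold change of 0.08. The strains did not overlap for 21 of the 72 (29.2%, beside 24.4%). Of the 17 called genes 6, Guca2a, Ano6, Kcnj13, Car2, Car8 and Car9, were called under every alternative that gave a value.

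**Figure D4:**
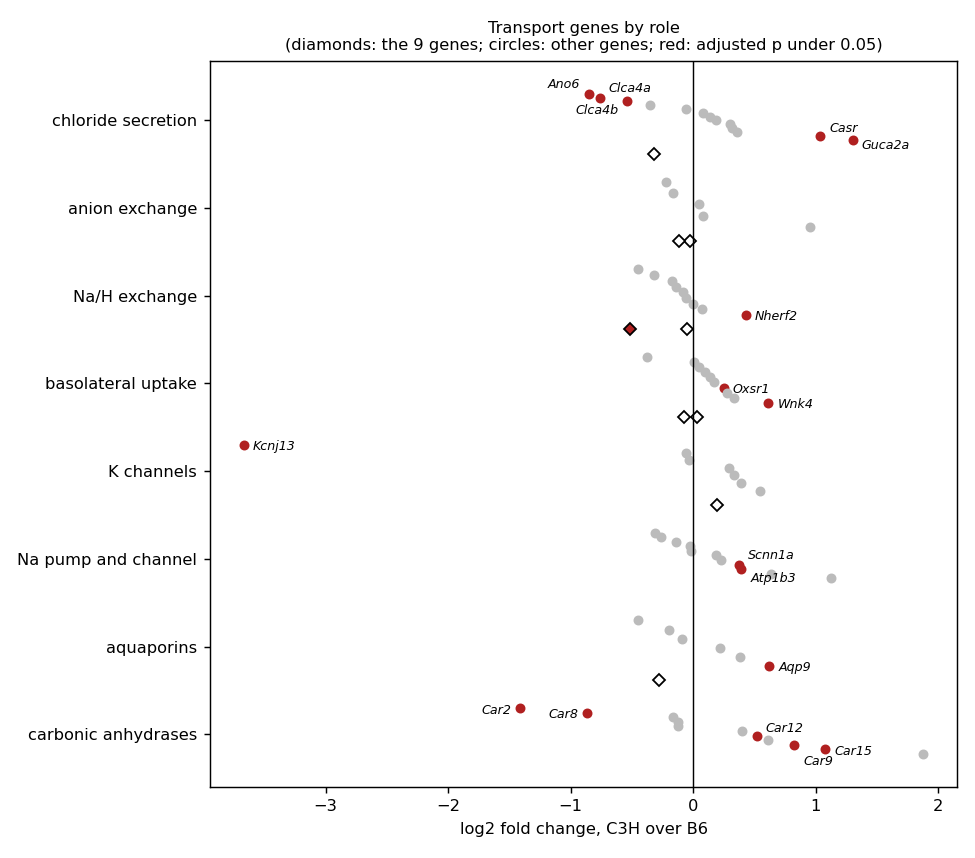
Log2 fold change of C3H over B6 for the 9 genes (diamonds) and the 72 other tested transport genes (circles), by role; red marks adjusted p under 0.05, and vertical offsets within a role only separate the points. Called genes lie on both sides of 0, from Kcnj13 at -3.67 to Guca2a at 1.30.

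Of 11 tested carbonic anhydrases 3 were higher and 2 lower in C3H (45.5% called, beside 21.4% of all tested genes). Car2 encodes a cytosolic carbonic anhydrase, which supplies protons and bicarbonate to the apical exchangers. It stood at 118, 103, 105 and 97.7 CPM in B6 and at 30.2, 34.6, 44.96 and 49.6 CPM in C3H, so every C3H library was below every B6 library. The log2 fold change was -1.41 (SE 0.15; adjusted p = 4.58e-05), or 2.66-fold lower. Car8, a family member without catalytic activity, was lower in C3H at 5.90 ± 0.490 CPM than in B6 at 10.8 ± 1.19 CPM (log2 fold change -0.86, adjusted p = 0.000217).

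Car9, a membrane-bound form with its active site outside the cell, was higher in C3H at 71.9 ± 13.3 CPM than in B6 at 40.6 ± 3.11 CPM (log2 fold change 0.82, adjusted p = 0.000610). Its exons overlap Gm12454 on the other strand (6.47 CPM in B6 and 8.20 CPM in C3H), so its level is uncertain to that extent. Car12 and Car15 also passed, at 0.52 and 1.08 on the log2 scale (adjusted p = 0.0417 and 0.0283), and are named after their values were seen. Car15 rested on 54 counts in B6 and 108 in C3H. Exons of Car15 overlap Gm20518 on the same strand (0.0684 CPM in B6 and 0.159 CPM in C3H), so its level is uncertain to that extent. The Car12 call was lost with any 1 of 7 libraries left out, all but C3H 5 (adjusted p at most 0.110), and its log2 fold change was 0.34 without C3H 1. For Car15 the call ended when B6 2, B6 3, B6 5 or C3H 1, C3H 3, C3H 4 was left out, with an adjusted p of at most 0.0757.

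Among 13 tested genes of apical chloride secretion and its control 2 were higher and 3 lower (38.5% called, beside 21.4% of all tested genes). Guca2a encodes guanylin, the peptide that opens CFTR through the receptor guanylate cyclase C and cyclic GMP. It stood at 42.4, 53.3, 63.9 and 56.8 CPM in B6 and at 132, 141, 113 and 147 CPM in C3H. The strains were far apart, with a log2 fold change of 1.30 (SE 0.13; adjusted p = 3.10e-05), or 2.46-fold higher. For 2 more genes of this pathway, named after their values were seen, the test was not passed: the receptor gene Gucy2c averaged 507 ± 48.3 CPM in B6 and 648 ± 125 CPM in C3H (adjusted p = 0.104), and Guca2b, for uroguanylin, 1100 ± 230 and 1354 ± 211 CPM (adjusted p = 0.253). Gucy2c passed with library totals in place of TMM (adjusted p = 0.00754), with C3H 1 left out (0.0158), and in a fit without a block of the 6 libraries whose replicate numbers occur in both strains (0.0441), but not with the replicate block in those libraries (0.0826).

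Ano6, a calcium-activated channel and lipid scramblase, averaged 697 ± 102 CPM in B6 and 387 ± 49.6 CPM in C3H, 1.80-fold lower (log2 fold change -0.85, adjusted p = 0.000742). Its exons overlap A130051J06Rik on the other strand (1.45 CPM in B6 and 0.389 CPM in C3H). Clca4a, of the calcium-activated chloride channel regulators, averaged 1331 ± 338 CPM in B6 and 784 ± 161 CPM in C3H (log2 fold change -0.76, adjusted p = 0.0178; 0.0578 without C3H 3). Its near copy Clca4b, named after its values were seen, averaged 2489 CPM in B6 and 1713 CPM in C3H, a log2 fold change of -0.54 (adjusted p = 0.0344); leaving out B6 3, B6 4, C3H 1, C3H 3 or C3H 4 ended that call, with an adjusted p of at most 0.127. Reads may be split between these near copies, so both values are uncertain. Casr, the calcium-sensing receptor, passed as higher (1.04, adjusted p = 0.0194) on only 45 counts in B6 and 89 in C3H; it was named after its values were seen, and the call was lost without B6 3, B6 4, C3H 3 or C3H 4 (at most 0.0580).

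Potassium channels besides Kcnq1 gave 0 higher and 1 lower of 7 tested in edgeR, DESeq2 and limma-voom alike, with 2 higher at an unadjusted p under 0.05. The share called by edgeR was 14.3%, beside 21.4% of all tested genes. Kcnj13, an inward rectifier, had 207 counts in all in B6 and 16 in all in C3H, a log2 fold change of -3.67 (SE 0.44; adjusted p = 0.000137). Its exons overlap Gigyf2 on the other strand, which stood at 74.4 CPM in B6 and 73.3 CPM in C3H against 1.18 and 0.0858 CPM for Kcnj13, so the level of Kcnj13 is uncertain. The Kcnq1 partner Kcne3 averaged 30.1 ± 3.31 CPM in B6 and 29.0 ± 5.10 CPM in C3H (adjusted p = 0.807); it is named here for its tie to Kcnq1, after its values were seen.

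**Figure D5:**
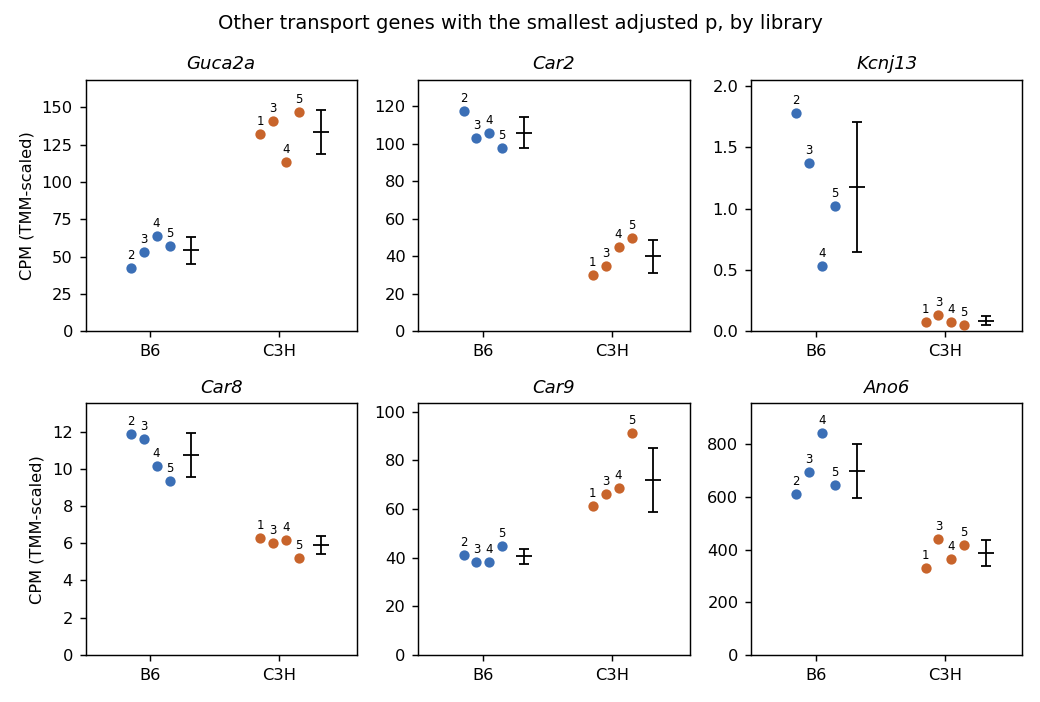
CPM (TMM-scaled, linear axes from 0) by library of the 6 other transport genes with the smallest adjusted p; numbers are replicate numbers and bars are the mean and SD of 4 libraries. In all 6 panels the B6 and C3H libraries do not overlap; Guca2a and Car9 are higher in C3H and Car2, Kcnj13, Car8 and Ano6 lower.

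The remaining roles held few calls. Of 9 tested partners of Na/H exchange edgeR called 1 higher and 0 lower, with 2 lower in DESeq2 and 2 at an unadjusted p under 0.05. The gene called higher was Nherf2, a scaffold of NHE3, which averaged 11.7 ± 2.04 CPM in B6 and 15.8 ± 1.48 CPM in C3H (log2 fold change 0.43, adjusted p = 0.0306). Its call needed each of B6 2, B6 3, B6 4, C3H 1 and C3H 3, with an adjusted p of at most 0.0976 once 1 of them was left out. The abundant scaffold gene Nherf1 and the gene of the linker ezrin, Ezr, both named after their values were seen, averaged 1783 ± 219 and 1526 ± 115 CPM in B6 and 1583 ± 331 and 1118 ± 249 CPM in C3H (adjusted p = 0.520 and 0.0703). Ezr passed as lower under 5 alternatives, DESeq2 among them (adjusted p = 0.0153).

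Anion exchangers other than the members gave 0 calls of 5 tested by edgeR, DESeq2 and limma-voom, with 1 lower at an unadjusted p under 0.05. The most abundant of them, the sulfate transporter gene Slc26a2, averaged 234 ± 46.3 CPM in B6 and 241 ± 43.3 CPM in C3H. Of 10 tested genes of basolateral uptake and its control edgeR called 2 higher and 0 lower (1 lower in DESeq2 and 1 at an unadjusted p under 0.05). Both called genes encode kinases of the pathway that controls NKCC1. Wnk4 averaged 3.49 CPM in B6 and 5.33 CPM in C3H (log2 fold change 0.61, adjusted p = 0.0107) and Oxsr1 66.7 ± 0.854 and 79.4 ± 2.77 CPM (0.25, adjusted p = 0.0247). Of the other kinases on that list, named after their values were seen, Wnk1 averaged 91.9 CPM in B6 and 92.4 CPM in C3H (adjusted p = 0.961), and Stk39 28.8 and 30.8 CPM (0.555). The Oxsr1 call was lost with any 1 of the B6 libraries, C3H 4 or C3H 5 left out (adjusted p at most 0.0788).

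For the sodium pump and the epithelial sodium channel edgeR called 2 of 11 tested genes higher and 0 lower (1 lower in DESeq2 and 1 at an unadjusted p under 0.05). Atp1b3, a pump subunit, averaged 22.3 CPM in B6 and 29.2 CPM in C3H (log2 fold change 0.39, adjusted p = 0.00689). Scnn1a, the alpha subunit of the sodium channel, averaged 11.8 CPM in B6 and 15.4 CPM in C3H (0.38, adjusted p = 0.0392). That call ended without any one of B6 2, B6 3, B6 5, C3H 1, C3H 4 and C3H 5, with an adjusted p of at most 0.113. The genes of the other channel subunits, Scnn1b and Scnn1g, had too few counts to be tested, at most 0.0192 and 0.0384 CPM in any library.

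Of 6 tested aquaporin genes besides Aqp7 only Aqp9 passed, at 0.429 CPM in B6 and 0.667 CPM in C3H (log2 fold change 0.62, adjusted p = 0.0414). That call was lost with any 1 of 7 libraries left out, all but C3H 1 (adjusted p up to 0.121), and DESeq2 called 0 of the 6 (Aqp9 adjusted p = 0.185); with robust dispersion in edgeR the adjusted p was 0.0505. Aqp9, like Aqp7, is an aquaglyceroporin.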

How the data were processed

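Poly(A) RNA libraries of the jejunum (Illumina Stranded mRNA kit; 200 ng input, RNA integrity number over 7, per the labels' protocols) were aligned with STAR 2.7.9a to GRCm39 and counted with HTSeq 2.0.2, per the submitters' processing notes. The authors deposited raw counts per gene; the annotation release and strand setting were not given in the sources used here. All samples are labelled as batch 1. Symbols and exon lengths came from GENCODE M21, on GRCm38, so no coordinates are given; 51948 of 56941 identifiers had a symbol.

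Counts were fitted in edgeR 4.0.16 (R 4.3.3): TMM, filterByExpr with a minimum count of 10, and the quasi-likelihood test, strain being the only term. Adjusted p-values are Benjamini-Hochberg over the 18025 genes tested, with a threshold of 0.05. CPM values use TMM-scaled library sizes of the tested genes (TMM factors 0.915 to 1.13), and SEs and 95% intervals were taken from the F statistic. Within-library ratios used a prior count of 0.5 and an exact two-sided permutation test. No 2 libraries agreed within counting noise (chi-square over its degrees of freedom 23.3 to 89.6). The fit was tested on simulated data with 50 changed genes per fold. It recovered 48% of 1.5-fold and 98% of 2-fold changes, and 4 of its 177 calls were false. Those calls were among 17874 tested genes, beside 3857 calls among 18025 in the strain comparison. Recovery at the larger share of calls was not tested, and no separate value was obtained for genes with few counts.

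The 9 members, the gene lists and the markers were chosen with earlier results of these data known. Named genes are the members; in each role up to 3 other genes with the smallest adjusted p under 0.05, or where none passed the most abundant; and the 2 genes most like each member. Other names are marked in the text. Alternatives were other scalings, filters of low counts, DESeq2 1.42.0, limma-voom (limma 3.58.1), robust dispersion, a threshold of 0.01, a replicate block, leaving out each library, and dropping the 4 pancreas-rich libraries (B6 2, B6 3, C3H 3 and C3H 5). Near copies, and exon overlaps on either strand that could bear on a level, are given beside the gene. The result of 1 listed gene is not reported here.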

Additional observations from a re-analysis of the deposited data

Results flagged for a closer look

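In a group of 4 libraries a value was marked when its gap to the nearest other library divided by the whole range exceeded Dixon's 95% critical value. Of 78 groups checked 3 were marked, and chance marks about 1 in 20. The groups checked did not cover every tested transport gene. Among those left out, Car5b and Kcnj15, named after their values were seen, also met the rule. Car5b stood at 4.22 CPM in C3H 3 beside 0.314 to 0.614 CPM in the other C3H libraries. Kcnj15 stood at 2.28 CPM in B6 3 beside 0.185 to 0.279 CPM in the other B6 libraries. The marked values were as follows. Slc26a2 in B6 4 stood at 303 CPM beside 205 to 219 CPM in the other B6 libraries. Sgk1, a kinase that acts on sodium transporters, stood at 265 CPM in B6 4 beside 65.1 to 78.4 CPM in the other B6 libraries. Over all libraries its log2 fold change was 1.12 (adjusted p = 0.0973 in edgeR), and without B6 4 it was 1.87 (adjusted p = 0.000418). Car3, a carbonic anhydrase abundant in fat, stood at 226 CPM in C3H 3 beside 0 to 9.23 CPM in the other C3H libraries. The same library had 31.5 CPM of Adipoq and 92.6 CPM of Fabp4, both the highest of the 8 libraries; the part of fat in the Car3 value was not tested. Without C3H 3 the log2 fold change of Car3 was -1.52 in place of 1.88 (adjusted p = 0.308 and 0.356). Sgk1 and Car3 were named after their values were seen.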

How the results depend on the processing

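Over 20 alternatives, 168 of 180 fold changes of the 9 genes stayed on the same side of the threshold, 9 lost a call (all Slc9a2) and 3 gained one (Cftr under 2 alternatives, Aqp7 under 1); 0 called values changed sign. The count of the 9 genes called lower, 1 with all libraries, was 0 at a threshold of 0.01, 2 in DESeq2, 0 without the 4 pancreas-rich libraries, and 0 to 2 with 1 library left out. Without B6 3 the 1 call was Cftr and not Slc9a2. Replicate numbers 3, 4 and 5 occur in both strains, and the labels do not say what they mark; the deviations of same-numbered libraries correlated at r = 0.00576, 0.180 and -0.0518, which did not meet the criterion for pairing (over 0.1 in every pair). With the replicate block in those 6 libraries 0 of the 9 genes were lower and 6 other transport genes were higher; without the block in the same 6 libraries the counts were 0 and 7. For the other transport genes, 11 higher and 6 lower with all libraries, the count of higher genes was 3 at a threshold of 0.01, 3 without the 4 pancreas-rich libraries and 5 to 12 with 1 library left out (6 without B6 2, 5 without B6 3, 6 without B6 5, 6 without C3H 3 and 5 without C3H 4). The count of lower genes was 10 with library totals and 10 in DESeq2, and 4 to 9 with 1 library left out. The cause was not tested, except that fits with fewer libraries or a stricter threshold have less power by construction. Without the 4 pancreas-rich libraries the log2 difference was 0.73 for Slc9a3 over Slc9a2 and -0.60 for Cftr over Slc12a2. With the longest transcript as the length 5 of 9 places in the C3H order stayed the same, and the step from Slc9a3 down to Slc26a3 narrowed in both strains. Depth limits only the low genes: Casr, Car15, Kcnj13 and Aqp9 rest on few counts.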
